A study of Mus musculus with 12 samples.

Results

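Fam43a, Lipg, Tpbg, Chmp1b, Gpx6 and Ighm, 6 genes with no common pathway, are described here because their transcripts were much higher in the striatum of SRF mutant mice than in that of control mice. They were chosen by their large genotype differences after cocaine and after saline, in the values reported below, so the genotype differences are a description and carry no test. Every probe set of the array annotated to exactly 1 of the 6 genes was taken, which gave 21 of the 22690 probe sets in the table. The expression level of each was measured on 12 Affymetrix arrays, 1 per animal, in 4 groups of 3. The groups were mutants given 25 mg/kg cocaine, mutants given saline, controls given 25 mg/kg cocaine and controls given saline, all killed 1 hour after an intraperitoneal injection. All animals were female littermates aged 10 to 15 weeks, and the tissue was the striatum with the nucleus accumbens. The series title names SRF as the gene under study, but the sample labels leave unstated how Srf was altered, by what Cre line and in which cells. Genotype and treatment were taken from the sample titles, since the description field of the samples assigns 5 arrays to cocaine-treated controls, 4 to cocaine-treated mutants and 3 to saline-treated controls.

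SRF, the serum response factor, is a transcription factor that binds CArG boxes in the promoters of immediate early genes and of genes of the actin cytoskeleton. In neurons it acts with cofactors that respond to MAP kinase signalling and to actin dynamics. Cocaine blocks dopamine reuptake, and in the striatum it switches on immediate early genes in medium spiny neurons, the main cell type of the region. The 6 genes act in unrelated processes. Fam43a encodes a protein with a phosphotyrosine-binding domain whose function is little known. Lipg encodes endothelial lipase, a secreted phospholipase that acts on high-density lipoproteins. Tpbg encodes the trophoblast glycoprotein 5T4, a membrane protein that inhibits canonical Wnt signalling in zebrafish. Chmp1b encodes a subunit of ESCRT-III, the complex that cuts membrane necks during vesicle budding and cell division. Gpx6 encodes a glutathione peroxidase, and Ighm the constant region of the heavy chain of immunoglobulin M, which is made by B cells.

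The 6 genes were chosen as high in a mutant of a promoter-binding factor, so promoter windows are shown where available. They cover Fam43a, Tpbg and Gpx6, the 3 of the 6 genes found in the RefSeq promoter table (build GRCm38.p6). Lipg, Chmp1b and Ighm have no entry there. Each window runs 5′ to 3′ on the gene's strand, from 250 bases before the annotated start to 50 bases after it, and capitals mark matches to the motifs searched. The windows lie at chr16:30599473-30599772 (plus strand) for Fam43a, chr9:85842130-85842429 (plus strand) for the first of the annotated starts of Tpbg and chr13:21311953-21312252 (plus strand) for Gpx6.
Fam43a: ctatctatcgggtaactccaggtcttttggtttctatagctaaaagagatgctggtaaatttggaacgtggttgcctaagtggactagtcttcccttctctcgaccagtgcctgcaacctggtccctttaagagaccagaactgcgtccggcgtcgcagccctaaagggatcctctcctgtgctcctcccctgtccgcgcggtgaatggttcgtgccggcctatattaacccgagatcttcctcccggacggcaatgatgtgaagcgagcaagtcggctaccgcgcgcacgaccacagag
Tpbg: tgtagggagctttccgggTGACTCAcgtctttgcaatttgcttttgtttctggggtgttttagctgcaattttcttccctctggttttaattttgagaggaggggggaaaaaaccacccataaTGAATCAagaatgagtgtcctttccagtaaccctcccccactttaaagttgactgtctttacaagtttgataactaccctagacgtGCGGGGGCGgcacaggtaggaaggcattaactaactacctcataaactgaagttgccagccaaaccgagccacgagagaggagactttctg
Gpx6: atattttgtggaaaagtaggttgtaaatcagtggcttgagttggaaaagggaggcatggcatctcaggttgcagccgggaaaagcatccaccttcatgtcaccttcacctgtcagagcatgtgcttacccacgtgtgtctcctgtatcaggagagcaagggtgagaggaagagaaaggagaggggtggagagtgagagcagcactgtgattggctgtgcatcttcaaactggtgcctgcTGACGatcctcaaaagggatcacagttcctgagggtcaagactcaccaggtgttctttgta

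Both strands of each window were searched for the CArG box bound by SRF, the AP-1 site TGANTCA, the cAMP response element TGACGTCA with its core TGACG, and the EGR site GCGNGGGCG. None of these windows, nor that of the other Tpbg start at chr9:85842602-85842901, held the letters of a CArG box, which 1.63% of all 32851 windows in the table hold. The window of Srf itself at chr17:46556113-46556412 (minus strand) holds 2, CCATATAAGG from 82 to 73 bases before the start and CCATAAAAGG from 62 to 53 bases before it. The first Tpbg window held 2 AP-1 sites, TGACTCA from 232 to 226 bases and TGAATCA from 127 to 121 bases before the start, and an EGR site from 41 to 33 bases before it. AP-1 sites occur in 7.81% of all windows and EGR sites in 5.55%. The Gpx6 window held the core TGACG from 11 to 7 bases before the start, which 20.8% of windows hold, and the full element TGACGTCA, which 1.79% hold, was in none of the member windows. A match is a stretch of letters and not a measured binding site, and a window without one says nothing of the factor.

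The deposited values are log2 signals made by the authors with GCRMA, so a difference of 1 is a 2-fold difference. Array medians lay between 3.75 and 3.78, and arrays correlated at 0.986 to 0.993 within groups and 0.976 to 0.990 between them. Srf was low in every mutant array, with means of 5.43 ± 0.0841 after cocaine and 5.19 ± 0.152 after saline in mutants, against 7.10 ± 0.118 after cocaine and 7.16 ± 0.0493 after saline in controls (log2 signal, SD, n = 3 each). A probe set was tested if its signal exceeded 4 on at least 3 arrays, and 11102 were. Of the 21 member probe sets, 9 passed, with at least 1 for every gene, and 12 did not. A member high in mutants alone passes through the mutant arrays, so the 9 are not a sample of all 21. One array stood apart in its dissection markers: the choroid plexus gene Ttr read 9.61 in replicate 3 of the cocaine-treated controls and at most 5.90 elsewhere. Ttr was not called for genotype or for cocaine, and results without that array are given where they rest on it. Medium spiny neuron markers were bright, with Penk averaging 11.8 to 11.9 in mutants and 11.7 in controls. In bulk tissue, fewer cells of a type and less RNA per cell cannot be told apart.

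Fam43a was high on every mutant array and rose further with cocaine in mutants. Its probe set read 6.11, 6.51 and 6.68 in cocaine-treated mutants, against 3.89, 4.06 and 3.52 in cocaine-treated controls. Saline arrays read 5.52, 5.15 and 5.36 in mutants, against 3.05, 3.98 and 3.36 in controls. The lowest mutant array lay above the highest control array, and the 3 cocaine-treated mutants lay above the 3 saline-treated ones, while the control groups overlapped. The mutant level was 6.10-fold higher after cocaine (log2 difference 2.61, SE 0.220) and 3.69-fold higher after saline (1.88, SE 0.220). Most control values lay under 4, where GCRMA compresses signals. With values under 4 set to 4, the difference over both treatments was 1.88 in place of 2.25.

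Lipg followed the same order of groups. Its main probe set read 5.03, 5.41 and 5.14 in cocaine-treated mutants, against 2.51, 2.53 and 2.35 in cocaine-treated controls. With saline the values were 3.91, 3.45 and 4.64 in mutants, against 2.33, 2.45 and 2.28 in controls. Mutant and control arrays did not overlap, nor did cocaine- and saline-treated mutants, and the saline-treated mutants were the most scattered of the groups (SD 0.601, against 0.0846 to 0.195 elsewhere). The level in mutants was 6.62-fold that in controls after cocaine (log2 difference 2.73, SE 0.218) and 3.14-fold after saline (1.65, SE 0.218). All 6 control values lay under 4, and with such values set to 4 the difference over both treatments fell to 0.70, against 2.19 as measured. Another Lipg probe set, under 4 on every array, read 3.54, 3.42 and 2.97 in cocaine-treated mutants and 2.75, 2.49 and 2.98 in saline-treated mutants, against at most 2.48 in cocaine-treated and 2.43 in saline-treated controls. The remaining one lay between 2.22 and 2.30 on all 12 arrays.

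Tpbg was measured by 2 tested probe sets that gave close values. The brighter one read 6.10, 6.23 and 5.70 in cocaine-treated mutants, against 4.34, 4.41 and 4.53 in cocaine-treated controls. After saline it read 5.18, 5.58 and 5.78 in mutants, against 4.12, 4.36 and 4.36 in controls. All mutant arrays lay above all control arrays, and the cocaine- and saline-treated groups overlapped within each genotype. The level was 3.00-fold higher in mutants after cocaine (log2 difference 1.59, SE 0.158) and 2.35-fold higher after saline (1.23, SE 0.158). The other tested probe set differed by 1.57 after cocaine and by 0.93 after saline (SE 0.159 each), and in it the 3 cocaine-treated mutants (5.62 to 5.97) lay above the 3 saline-treated ones (5.01 to 5.50). A probe set under the filter lay between 2.84 and 3.15 on all arrays.

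Chmp1b had the clearest separation of all 4 groups. Its brighter probe set read 7.49, 7.47 and 7.57 in cocaine-treated mutants, against 5.98, 6.27 and 6.30 in cocaine-treated controls. After saline it read 6.74, 6.97 and 6.90 in mutants, against 5.61, 5.46 and 5.29 in controls. No neighbouring groups overlapped, in the ascending order saline-treated controls, cocaine-treated controls, saline-treated mutants and cocaine-treated mutants. The level in mutants was 2.51-fold that in controls after cocaine (log2 difference 1.33, SE 0.108) and 2.68-fold after saline (1.42, SE 0.108). The other probe set gave the same order with no overlap, and differences of 1.12 after cocaine and 1.16 after saline (SE 0.126 each). A probe set annotated to Chmp1b and to 2610002M06Rik together, and so not a member, averaged 4.15 in both mutant groups, against 4.04 ± 0.252 after cocaine and 4.06 ± 0.450 after saline in controls (log2 signal, SD, n = 3 each).

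Gpx6 was high in mutants whatever the treatment. It read 6.07, 6.12 and 6.29 in cocaine-treated mutants, against 4.49, 4.10 and 4.31 in cocaine-treated controls. With saline the values were 6.39, 6.20 and 5.66 in mutants, against 4.71, 4.07 and 4.15 in controls. Mutants and controls did not overlap, and cocaine- and saline-treated arrays of each genotype did. The difference was 1.86 after cocaine (SE 0.192, 3.63-fold) and 1.77 after saline (SE 0.192, 3.42-fold).

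Ighm was high in mutants on 2 of its 11 probe sets and under 4 on the others. Of these 2, the one with the suffix s in its array name read 6.06, 5.90 and 6.37 in cocaine-treated mutants, against 3.29, 3.26 and 3.13 in cocaine-treated controls. After saline it read 6.34, 6.12 and 5.69 in mutants, against 3.13, 2.76 and 2.39 in controls. Every control value lay under 4, and the difference over both treatments was 3.09 (SE 0.135), or 2.08 with values under 4 set to 4. The one with the suffix a, the brighter of both on average, read 5.26, 5.41 and 5.70 in cocaine-treated mutants, against 4.16, 3.81 and 3.90 in cocaine-treated controls. After saline it read 6.0, 5.79 and 5.30 in mutants, against 4.14, 4.08 and 3.85 in controls, and it differed by 1.59 over both treatments (SE 0.119). The 9 other probe sets lay between 1.91 and 3.10 on all arrays, with genotype differences of -0.0265 to 0.0377. On this type of array the suffix s marks probe sets that can match several transcripts, and the suffix a those that match variants of 1 gene. Which transcripts gave the high signal was not tested.

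**Figure D1:**
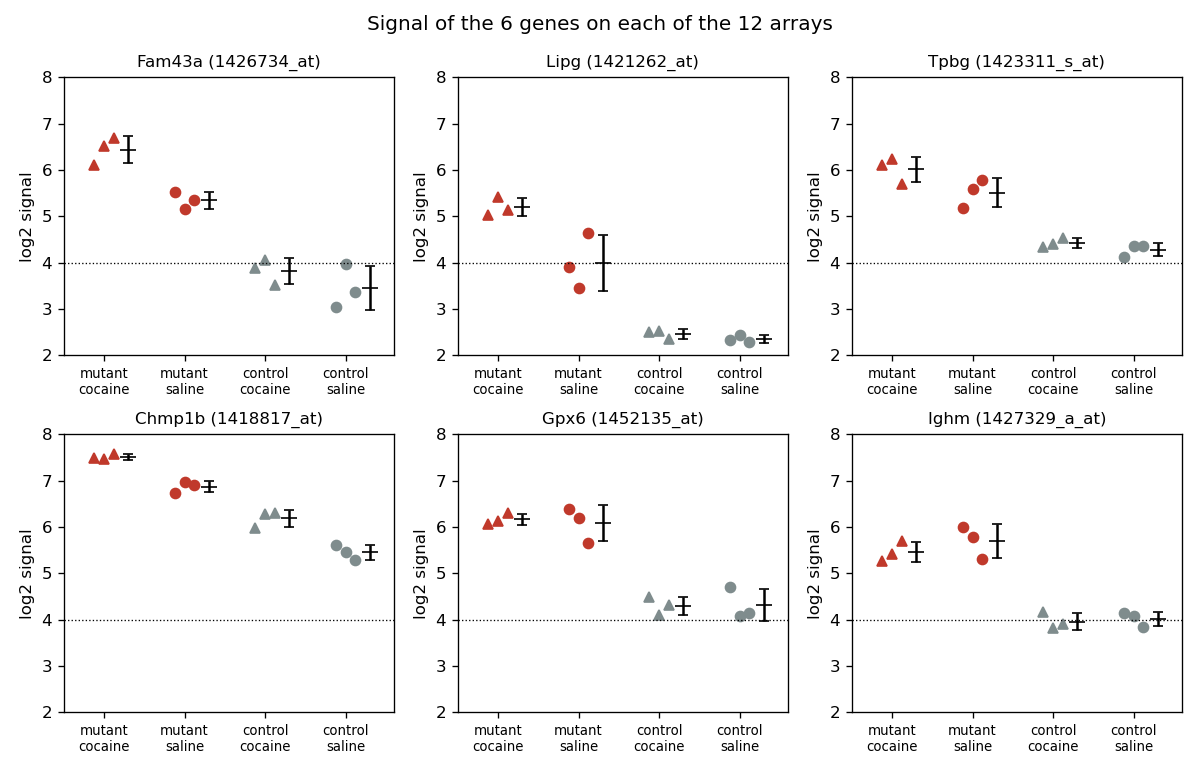
Log2 signal of the main probe set of each gene (y axis) on each of the 12 arrays, by group (x axis; red mutants, grey controls, triangles cocaine, circles saline), with the mean and SD beside each group of 3 and a dotted line at 4. Every mutant array lies above every control array in all 6 panels, and Fam43a, Lipg and Chmp1b are also higher in cocaine-treated than in saline-treated mutants without overlap.

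**Figure D2:**
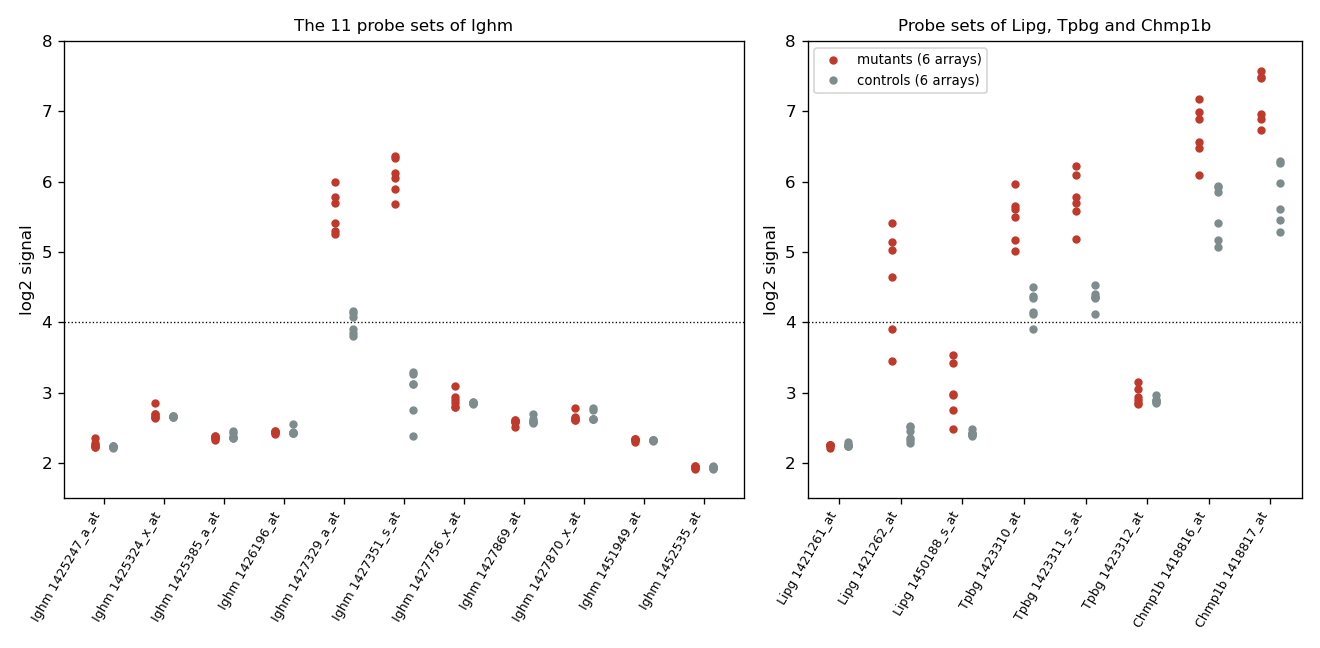
Log2 signal (y axis) of all 11 probe sets of Ighm on the left and of the probe sets of Lipg, Tpbg and Chmp1b on the right, with the 6 mutant arrays in red and the 6 control arrays in grey and a dotted line at 4. The 9 dim Ighm probe sets lie between 1.91 and 3.10 in both genotypes, while the 2 tested ones are separated by genotype.

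Ranked by the genotype difference over both treatments among the 11102 tested probe sets, the 9 member probe sets stood at places 1 (Ighm), 2 (Fam43a), 4 (Lipg), 5 (Gpx6), 6 (Ighm), 9 (Tpbg), 11 (Chmp1b), 17 (Tpbg) and 23 (Chmp1b). These ranks are the ground on which the genes were chosen, and they use signals under 4 as measured. With values under 4 set to 4, the difference of Lipg was 0.70, under the 1.14 of the Chmp1b probe set at place 23.

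Cocaine was not used in the choice. In this balanced design its effect averaged over both genotypes is uncorrelated with either genotype difference, whereas the responses within a genotype share arrays with them. Averaged over both genotypes, Chmp1b, Fam43a and Lipg rose with cocaine and Tpbg, Gpx6 and Ighm were not called. Of the 9 tested member probe sets, 4 were called higher and 0 lower (limma, Benjamini-Hochberg adjusted p under 0.05), where 2.31% of all 11102 were called, 2.11% higher and 0.207% lower. At an unadjusted p under 0.05, 1273 of the 11102 passed. Lipg passed the filter through mutant arrays alone, and its control values all lay under 4, so its averaged change rests on the mutants. It exceeded 4 in the cocaine-treated mutants (5.03, 5.41 and 5.14), but in saline-treated mutants only in replicate 3 (4.64). Without the cocaine-treated mutants it would not have passed, so its cocaine calls and its place in these counts depend on the response tested. Fam43a exceeded 4 in controls only in replicate 2 of the cocaine-treated ones (4.06). The Ighm probe set with the suffix s stayed under 4 in all controls, so both probe sets also passed through mutant arrays. The median change of the 9 was 0.32, against -0.00711 over all tested probe sets.

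Chmp1b rose with cocaine in both genotypes. The brighter probe set rose 1.61-fold over both genotypes (log2 change 0.69, SE 0.0764, limma adjusted p = 0.000169). It rose 1.56-fold in mutants (0.64, SE 0.108, adjusted p = 0.00614) and 1.66-fold in controls (0.73, SE 0.108, adjusted p = 0.00482), and these calls held in all 17 alternative fits. The other probe set rose by 0.67 over both genotypes (SE 0.0894, adjusted p = 0.000791), by 0.65 in mutants (adjusted p = 0.0172) and by 0.68 in controls (adjusted p = 0.0311). For that probe set the call in mutants was lost without replicate 2 or 3 of the cocaine-treated mutants or replicate 1 of the saline-treated ones, with adjusted p of up to 0.0734, and the call in controls was lost in 6 of 12 fits that omitted 1 array (adjusted p at most 0.159). Those 6 left out each cocaine-treated control in turn, replicate 2 or 3 of the saline-treated controls, or replicate 2 of the cocaine-treated mutants. In controls 2 of the 9 member probe sets were called, both of Chmp1b, where 0.45% of all tested probe sets were, all of them higher. Without the filter on dim probe sets the dimmer Chmp1b probe set lost its call in controls (limma adjusted p = 0.168), and the count was 1 of 9.

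Fam43a rose 1.65-fold with cocaine over both genotypes (log2 change 0.73, SE 0.155, limma adjusted p = 0.0263). In mutants it rose 2.13-fold (1.09, SE 0.220, adjusted p = 0.0216), and its change in controls was 0.36 (SE 0.220, adjusted p = 0.905). With values under 4 set to 4, the change of Fam43a in controls was 0.02, so its averaged change, too, rests mainly on the mutants. The averaged call was lost in 7 of 12 fits that omitted 1 array (adjusted p at most 0.0772), and the call in mutants in 4 of 12. For the averaged response the arrays were replicates 2 and 3 of either mutant group, replicates 1 and 2 of the cocaine-treated controls and replicate 3 of the saline-treated controls. For the response in mutants they were replicates 2 and 3 of either mutant group, with adjusted p of up to 0.0989. Every such fit kept a rise of at least 0.62 in the average and 0.97 in mutants.

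Lipg rose 1.57-fold over both genotypes (log2 change 0.65, SE 0.154, limma adjusted p = 0.0466). This call was lost in 11 of 12 fits that left out 1 array, the exception being replicate 3 of the saline-treated mutants, and adjusted p reached 0.12. It was also lost with quantile normalization (adjusted p = 0.0511). Without the cocaine-treated control array with high Ttr, the change was 0.68 with an adjusted p of 0.0785. In mutants Lipg rose 2.28-fold (1.19, SE 0.218, adjusted p = 0.0111), a call lost without replicate 2 of the cocaine-treated mutants (adjusted p = 0.0661) or replicate 1 of the saline-treated ones (adjusted p = 0.051). Its change in controls was 0.11 (SE 0.218, adjusted p = 0.987), from levels under 4. Lipg was tested only because the cocaine-treated mutants exceeded 4, so its calls depend on the group they test.

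In mutants 4 of the 9 member probe sets were called higher with cocaine and 0 lower, for Fam43a, Lipg and Chmp1b. Of all tested probe sets 1.92% were called, 1.76% higher and 0.162% lower. The same mutant arrays entered the choice of the genes, and Lipg was tested only because the cocaine-treated mutants exceeded 4. The member count is therefore a description and not an independent result to set against that share. The count in mutants was 1 of 9, a probe set of Chmp1b, both without the filter on dim probe sets and without replicate 2 of the cocaine-treated mutants, and 2 of 9 without replicate 3 of the cocaine-treated or replicate 1 of the saline-treated mutants. Without the filter the adjusted p in mutants was 0.124 for Fam43a, 0.0824 for Lipg and 0.0718 for the dimmer Chmp1b probe set. The change of Tpbg was 0.50 (SE 0.158, adjusted p = 0.19) and 0.52 (SE 0.159, adjusted p = 0.167) in mutants, and 0.14 and -0.12 in controls. That of Gpx6 was 0.08 (SE 0.192) in mutants and -0.01 (SE 0.192) in controls, with an averaged change of 0.03 (SE 0.136, adjusted p = 0.966). For Ighm the averaged change was -0.15 (SE 0.119, adjusted p = 0.719) on the probe set with the suffix a and 0.26 (SE 0.135, adjusted p = 0.501) on that with the suffix s. Without the filter on dim probe sets, only Chmp1b kept an averaged call, on both its probe sets, and Fam43a and Lipg had adjusted p of 0.144 and 0.2.

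**Figure D3:**
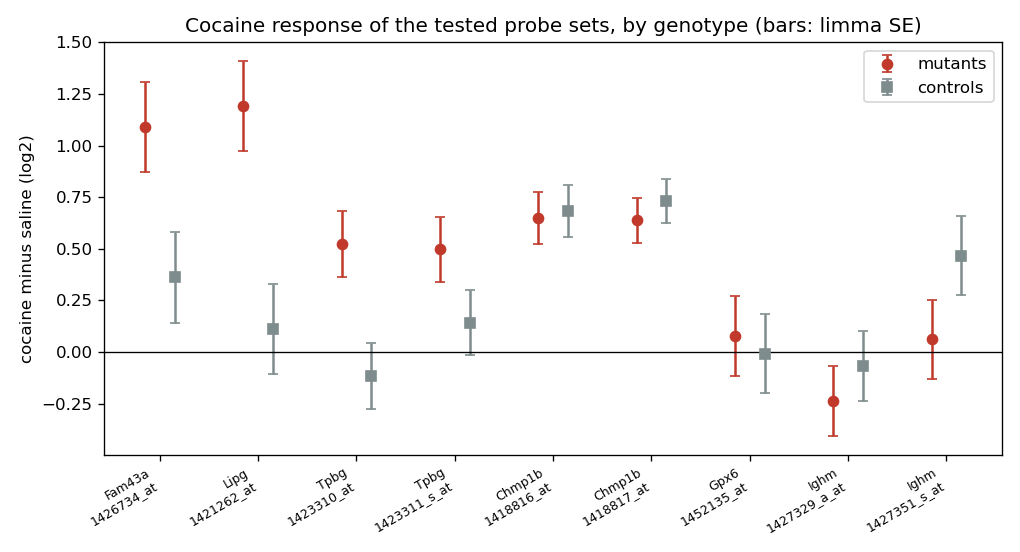
Cocaine minus saline on the log2 scale (y axis) for each tested member probe set (x axis), in mutants (red circles) and controls (grey squares), with limma's standard errors. Chmp1b is called in both genotypes, at 0.64 and 0.65 in mutants against 0.73 and 0.68 in controls, and the differences for Fam43a and Lipg are 1.09 and 1.19 in mutants against 0.36 and 0.11 in controls.

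The response to cocaine in mutants minus that in controls was 1.08 for Lipg (SE 0.308), 0.73 for Fam43a (SE 0.311), 0.36 and 0.64 for the 2 tested probe sets of Tpbg (SE 0.223 and 0.225), and -0.09 and -0.04 for those of Chmp1b (SE 0.153 and 0.179). For Gpx6 it was 0.09 (SE 0.271), and for Ighm -0.17 and -0.40 (SE 0.238 and 0.270). This quantity is also the genotype difference after cocaine minus that after saline, which were the values that chose the genes, so it is given with no test and the responses of the genotypes are not shown to differ.

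**Figure D4:**
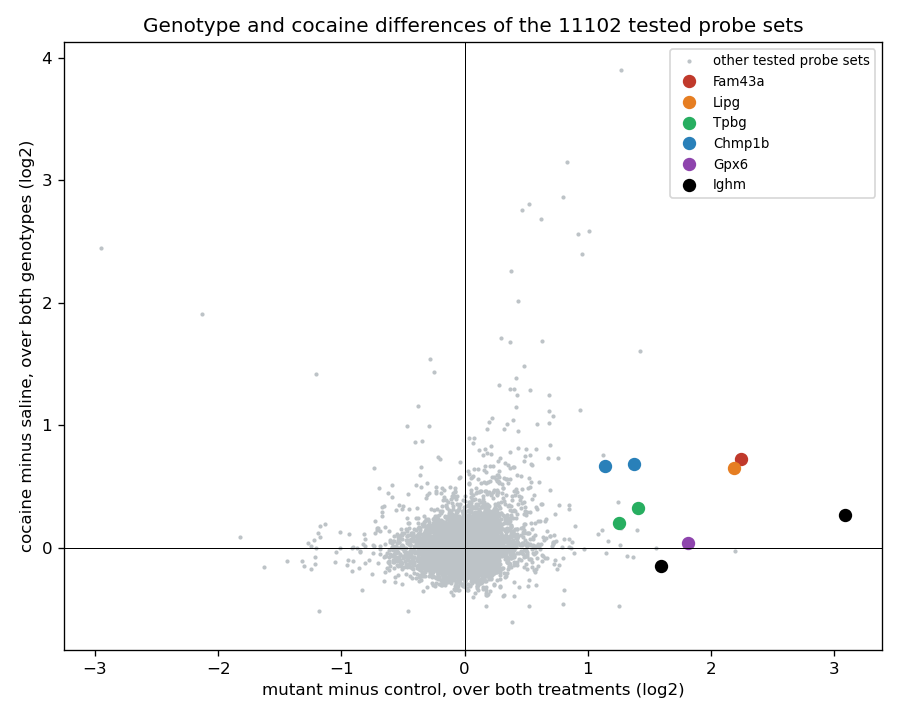
Genotype difference over both treatments (x axis, mutant minus control, log2) against cocaine response over both genotypes (y axis, cocaine minus saline, log2) for all 11102 tested probe sets, with the 9 member probe sets in colour. Chmp1b, Fam43a and Lipg lie at 0.65 to 0.73 on the y axis, and Gpx6 and the Ighm probe sets at -0.15 to 0.26.

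By the shape of their profiles over the 12 arrays, each on its brightest tested probe set, Fam43a and Lipg were each other's nearest gene. So were Gpx6 and Ighm, while Tpbg and Chmp1b were nearest to genes that are no members. Likeness was measured as the root mean square difference between probe sets after each was centred on its own mean, and it is dominated by the genotype difference that chose the genes. For Fam43a the nearest gene of all those tested was Lipg, at 0.323 on the log2 scale, followed by Pdyn, the dynorphin precursor (0.535), and Chmp1b (0.576). Lipg had Fam43a, Tpbg (0.53) and Pdyn (0.532) as its nearest. The distance between Gpx6 and Ighm was 0.205, for the Ighm probe set with the suffix a. That probe set differed by 1.59 between genotypes and Gpx6 by 1.82. The Ighm probe set with the suffix s differed by 3.09, so the pairing is not shown for it. Gpx6 was followed by Pdyn (0.295) and Dclk1, a kinase that binds microtubules (0.356), and Ighm by Dclk1 (0.256) and Rab3b, a GTPase of synaptic vesicles (0.312). Tpbg was closest to Extl2, a glycosyltransferase gene (0.199), Dmkn (0.231) and Parp4 (0.279), and Chmp1b to Dmkn (0.269), Extl2 (0.279) and Tpbg (0.298). In saline-treated mutants Gpx6 and Ighm were both lowest in replicate 3, with deviations of -0.425 and -0.395 from their group means, the array on which Lipg was highest, with a deviation of 0.64. Averaged over the 6 main probe sets, no array strayed from its group mean by more than 0.118 on the log2 scale.

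Other B-lineage genes were not above the filter in either genotype. The 14 genes of a list of 20 B-lineage markers that are on the array, among them Cd79a and Cd79b of the B cell receptor, Ms4a1 and Jchain, had 24 probe sets, and all 24 stayed under 4 on every array, at 1.98 to 3.50. Their summed signal lay between 136 and 145 on mutant arrays and between 139 and 143 on control arrays. Their genotype differences ran from -0.0529 to 0.0295. Of 7 erythroid markers, only 3 had a probe set with 1 symbol, and Slc4a1 was the brightest of them. These 3, too, stayed under 4 on every array, with summed signals of 26.7 to 28.8 in mutants and 27.7 to 30.1 in controls. The rest of that list was not read, and the blood content of the samples was not tested.

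Endothelial markers, of the cells after which endothelial lipase is named, were not called. Of 9 endothelial genes on the array 4 were tested and 0 were called for genotype, with a median difference of 0.077, and their summed signal over all probe sets was 199 to 233 in mutants and 138 to 263 in controls. Slco1a4, the brightest, differed by 0.01 (limma adjusted p = 0.99). Of the other cell type lists, 0 of 9 tested microglial genes, 0 of 8 astrocytic, 0 of 7 oligodendrocytic, 0 of 1 choroid plexus and 0 of 1 meningeal fibroblast genes were called for genotype on their brightest tested probe set, where 9.47% of all tested probe sets were called. The astrocyte filament gene Gfap was called on its other tested probe set (0.80, adjusted p = 0.0018) and differed by 0.39 on its brightest (adjusted p = 0.144), and its part in the member differences was not tested. At an unadjusted p under 0.05, 2602 of those 11102 passed. The summed signals of these 5 lists, in the same order, were 1120 to 1300, 4570 to 5580, 21500 to 24900, 58.4 to 131 and 95.8 to 109 on mutant arrays, against 1200 to 1420, 4820 to 5420, 18200 to 23600, 56.7 to 1260 and 95.4 to 106 on control arrays. The 5 cortical excitatory markers on the array stayed under 4 throughout, summing to 32.5 to 35.2 in mutants and 32.5 to 38.0 in controls. Of 6 tested medium spiny neuron genes, 2 were higher in mutants on their brightest probe set, the neuropeptide precursors Tac1 (0.35, adjusted p = 0.00103) and Penk (0.19, adjusted p = 0.0431), and 1 was lower, Rgs9, a regulator of G protein signalling (-0.33, adjusted p = 0.0342). The phosphodiesterase gene Pde10a was called on 1 of its 3 tested probe sets (0.58, adjusted p = 0.00637) and not on its brightest (0.29, adjusted p = 0.149). The list's summed signal was 9240 to 10200 in mutants and 8620 to 9320 in controls, and the part of this shift in the member differences was not tested.

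The genes related to each member were called by limma on the brightest tested probe set of each gene, at an adjusted p under 0.05, where 4.41% of all tested probe sets were higher and 5.05% lower in mutants over both treatments. Among 14 tested genes of glutathione and peroxide handling, 1 was higher and 1 lower, with a median of -0.0481. Gclc, the catalytic subunit of glutamate-cysteine ligase, differed by 0.27 (SE 0.0727, adjusted p = 0.0357) on 1 of its 2 tested probe sets, and Gpx1, the main cytosolic glutathione peroxidase, by -0.31 (SE 0.0619, adjusted p = 0.00674). In this list 2 genes rose with cocaine over both genotypes, Gclc by 0.54 (adjusted p = 0.000764) and the thioredoxin reductase gene Txnrd1 by 0.34 (adjusted p = 0.00471). Gclc averaged 8.80 ± 0.218 in cocaine-treated and 7.84 ± 0.0475 in saline-treated mutants, and 8.12 ± 0.110 in cocaine-treated and 7.985 ± 0.0404 in saline-treated controls (log2 signal, SD, n = 3 each).

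Of 10 tested lipase and lipoprotein genes, 1 was higher and 1 lower in mutants, with a median of 0.0687. Lpl, which encodes lipoprotein lipase, a relative of endothelial lipase, differed by 0.34 (SE 0.0782, limma adjusted p = 0.015), and the lipoprotein receptor gene Vldlr by -0.27 (SE 0.0612, adjusted p = 0.015). Of 22 tested ESCRT genes 0 were higher and 2 lower on their brightest probe set, with a median of 0.0127. Ist1, an ESCRT-III-like gene, was called higher on its other tested probe set (0.26, adjusted p = 0.0158) and differed by 0.02 on its brightest (adjusted p = 0.857). The lower ones were Chmp3, another ESCRT-III subunit (-0.31, adjusted p = 0.0393), and Vta1, which activates the ATPase that takes ESCRT-III apart (-0.25, adjusted p = 0.0368). In the lipase and ESCRT lists 0 genes were called for cocaine over both genotypes, and no test compares Chmp1b with the other ESCRT genes.

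The Wnt list had 1 gene higher and 3 lower of 11 tested, with a median of -0.176. The ligand gene Wnt2 was lower in mutants (log2 difference -1.63, SE 0.0633, limma adjusted p = 8.74e-09) at mutant levels under 4, and Wnt7a differed by -0.52 (adjusted p = 0.000627). Porcn, the acyltransferase of Wnt ligands, differed by -0.21 (adjusted p = 0.0447), and the signal transducer gene Dvl1 by 0.16 (adjusted p = 0.0487) on 1 of its 2 probe sets, with a difference of -0.142 on its other one. Of 7 tested genes for adaptors with a phosphotyrosine-binding domain, 0 were called, with a median of 0.0155, and Apbb1, the brightest, differed by -0.11 (adjusted p = 0.271). In the Wnt and adaptor lists 0 genes were called for cocaine over both genotypes.

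Chmp1b and Lipg lie on chromosome 18, Fam43a on 16, Gpx6 on 13, Ighm on 12 and Tpbg on 9, and Srf on 17. Of the 36 genes that are the 3 nearest on each side of a member in the RefSeq gene table, 2 had a probe set with 1 symbol and 1 was tested, Lsg1 beside Fam43a (0.10, limma adjusted p = 0.618). The search was therefore widened, after the values had been seen, to the nearest genes with a tested probe set, up to 3 on each side, which gave 35. Their genotype differences ran from -0.568 to 0.369, and 5 of the 35 (14.3%) were called, 2 higher and 3 lower, where 9.47% of all tested probe sets were called for genotype. The called ones were Ppp1r2 (-0.57) and Bdh1 (0.37) beside Fam43a, Elovl4 (0.26) beside Tpbg, Epdr1 (-0.22) beside Gpx6 and Crip2 (-0.23) beside Ighm. None of the 35 was called for cocaine by limma over both genotypes, with changes of -0.293 to 0.299, where 2.31% of all tested probe sets were.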

How the data were processed

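RNA of 12 striatum samples was hybridised to 1 Affymetrix mouse array each. According to the submitters' processing notes the authors used GCRMA and R 2.4.1 to make the deposited log2 signals, 1 per probe set. GCRMA settings and log base were not stated, and log2 was taken from the range of the values (1.26 to 13.1). GCRMA compresses dim signals, and the number of arrays limits the precision. The deposited values were used as they stand. All 22690 probe sets but 64 controls were filtered (over 4 on at least 3 arrays), and 11102 were fitted with limma 3.58.1 in R 4.3.3, with a mean per group, moderation by eBayes (residual degrees of freedom 8, prior 4.71) and p-values adjusted over all of them by Benjamini-Hochberg. The fit was tested on simulated data. The spread is that between what the titles call biological replicates. Exactly 1 gene symbol was given for 20393 probe sets, more than 1 for 691 and no symbol for 1606, and 20364 Entrez identifiers were found in the RefSeq table of GRCm38.p6, which served for names, neighbours and promoters.

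The 6 genes, the lists, the tests and the motifs were chosen with earlier results of these data known. Named genes are every member, Srf, the 3 genes nearest to each member in profile, up to 4 called genes of each list (or its brightest) and called chromosome neighbours. Txnrd1 and the widened neighbours were added after their values were seen. Gfap, Pde10a and Ist1 are also outside this rule and are named for calls on a probe set other than their brightest. Lists used the brightest tested probe set of a gene. Summed signals are sums of 2 to the power of the log2 signal over all probe sets of a marker list.

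Same-numbered replicates of different groups did not deviate together (1 of 18 pairs correlated above 0.1, range -0.145 to 0.116), so no block was used in the tests. Alternatives were no filter, a filter at 6, quantile normalization, the replicate block, values under 4 set to 4, and leaving out each array.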

Additional observations from a re-analysis of the deposited data

How the results depend on the processing

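The 4 counts of called probe sets (213 for cocaine in mutants, 50 in controls, 257 over both genotypes and 1051 for genotype) stayed within 1.5 times their value in 66 of the 68 alternative fits. The exceptions were for cocaine in mutants, where leaving out replicate 1 or 2 of the cocaine-treated mutants gave 128 and 138 calls, in a range of 128 to 239 over the 12 fits without 1 array. The same ranges were 38 to 58 in controls, 186 to 249 over both genotypes and 805 to 1099 for genotype. With the replicate block the counts were 178, 46, 216 and 907; the numbers did not pair the samples, and under the block the Lipg call over both genotypes (adjusted p = 0.0821) and the call of the dimmer Chmp1b probe set in controls (adjusted p = 0.0741) were lost. Quantile normalization also lost that Lipg call (adjusted p = 0.0511). Of the 27 cocaine results of the member probe sets, 21 stayed on their side of the threshold in every alternative, and none turned in sign while called. Of the 9 genotype differences of tested probe sets, 3 moved by more than the replicate SD, all with values under 4 set to 4 (Fam43a 1.88, Lipg 0.70, Ighm 2.08). With the filter at 6, 5 of the 9 member probe sets were left and Lipg was not tested. Signals under 4 limit Lipg, Fam43a and Ighm in controls.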
